A study of Mus musculus with 12 samples.

Results

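Chemokines of lung and lung tumor were followed with 13 probe sets of 9 genes, named by their identifiers from a fixed list, out of 45101 probe sets on the array. A probe set is a group of short probes that read 1 transcript, or in some cases near-identical ones. Its log2 signal is given below, so that a difference of 1 is a doubling. Cxcl12 was read by 3 probe sets, Cxcl14 and Ccl6 by 2 each, and Cxcl1, Cxcl5, Cxcl13, Cxcl15, Ccl2 and Ccl21 by 1 each. The lungs came from male FVB mice, an inbred strain, aged 7 to 11 months: 4 non-transgenic lungs, 4 histologically normal lungs adjacent to tumor from transgenic mice, and 4 lung adenocarcinomas from transgenic mice. Both transgenic groups carried wild-type human cyclin E under the human surfactant protein C promoter, which is active in alveolar type II cells, which ties the transgene to those cells of the lung. Each tissue was hybridized to 1 array, and the number of arrays limits the precision. The design text takes the tumors and adjacent lungs from the same 4 transgenic mice, and the tissue codes of equal replicate numbers neighbour each other, whereas the methods speak of independent samples.

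Chemokines are small secreted proteins that guide leukocytes along gradients through G protein-coupled receptors. One class, of which Cxcl1, Cxcl5 and Cxcl15 are members, draws mainly neutrophils. Ccl2 and Ccl6 draw monocytes and other myeloid cells, and Cxcl12, Cxcl13, Cxcl14 and Ccl21 are made by resting tissues and place lymphocytes, dendritic cells and progenitors.

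Tumors had a higher Cxcl1 signal and lower Cxcl12 (by 1417574_AT) and Ccl21 signals than either kind of lung. No probe set of the list passed the test between the adjacent and the non-transgenic lungs. Cxcl1, which attracts neutrophils through the receptor Cxcr2, was 6.36-fold higher in tumor than in adjacent lung. That call was lost without tumor 1, without tumor 3 or without adjacent lung 1, and non-transgenic lung 1 (7.35) lay above tumor 2 (6.68). Cxcl12, the ligand of Cxcr4, was lower by 1417574_AT with a log2 difference of -4.36 (20.6-fold in the deposited signals), and Ccl21, the ligand of Ccr7, with one of -3.48 (11.1-fold). For both, 2 of the 4 tumors lay below the median of the whole table (4.18). Signals this low may be background, so that the size of these folds depends on how the background was corrected. The fall of Cxcl12 (1417574_AT) and Ccl21 was uneven, since tumor 2 lay far above the other tumors for both. The other tested Cxcl12 probe set, 1448823_AT, did not pass with all 4 tumors (limma's adjusted p = 0.17 against adjacent and 0.11 against non-transgenic lung). Tissue was measured in bulk, so that fewer cells of a type and less RNA per cell cannot be told apart.

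**Figure D1:**
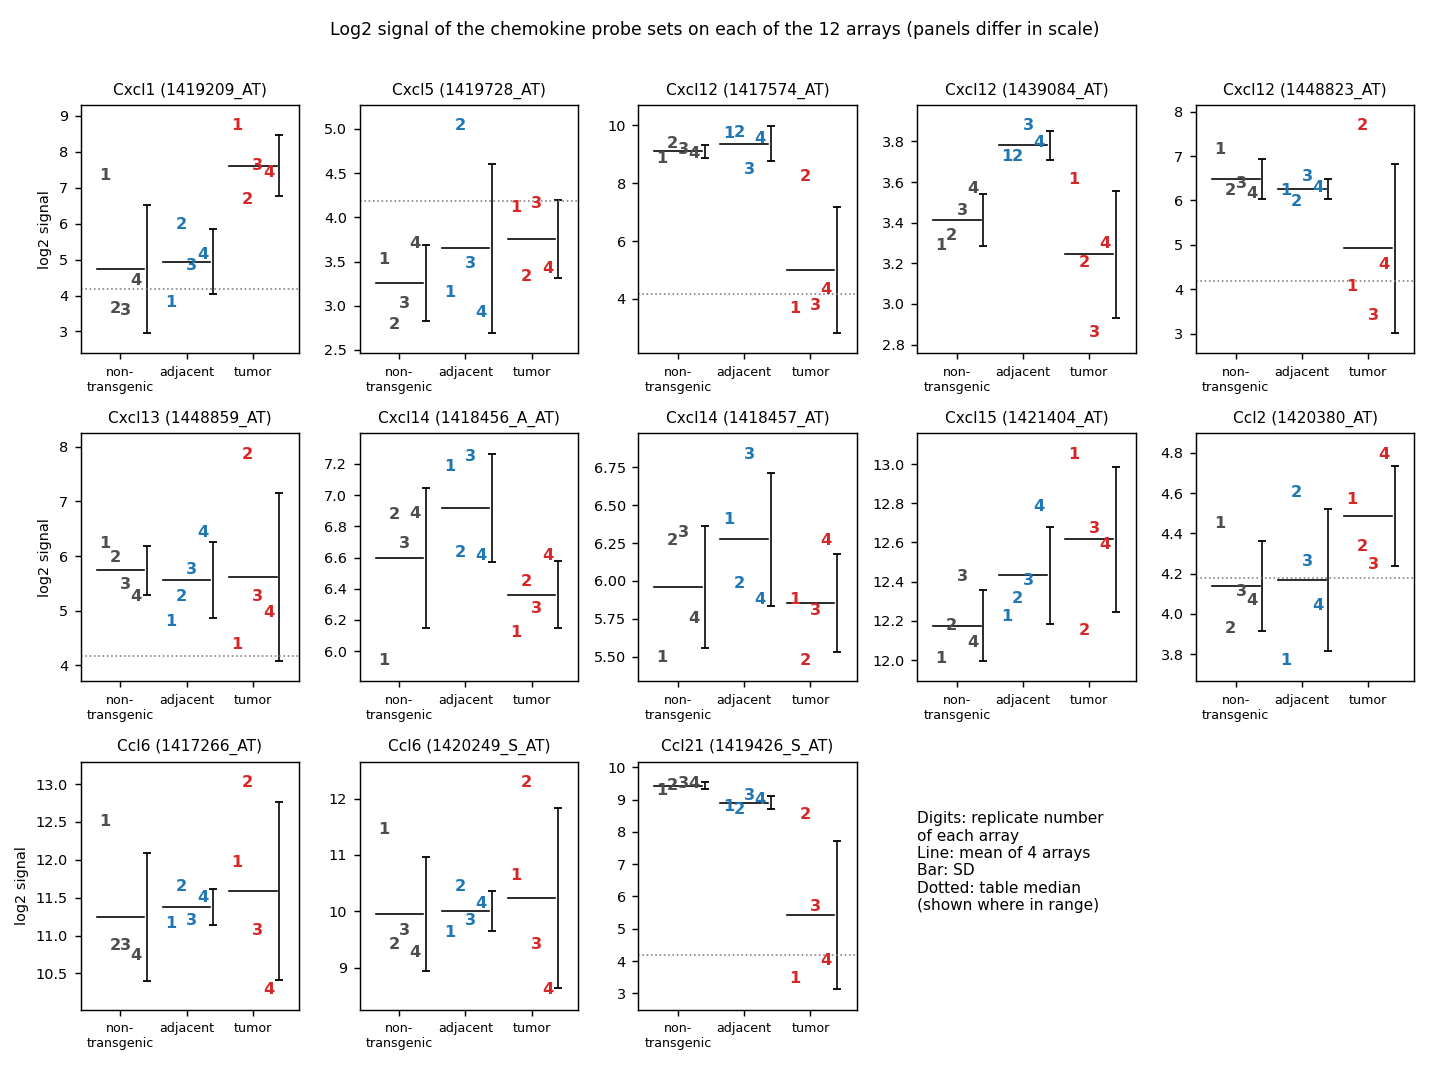
Log2 signal (vertical axis, scale set per panel) of each of the 13 chemokine probe sets in non-transgenic lung, adjacent lung and tumor (horizontal axis, 4 arrays each). Digits are replicate numbers, lines are group means and bars are SD. Cxcl12 (1417574_AT) and Ccl21 lie low in tumors 1, 3 and 4 and near the lungs in tumor 2.

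Of the 13 probe sets, 11 were brighter than 4.18, the median of the whole table, on 4 or more arrays and were tested with limma among 23538 probe sets, and Cxcl5 (1419728_AT) and Cxcl12 (1439084_AT) did not and were left untested. Between tumor and adjacent lung, 1 probe set of the list was higher and 2 were lower at an adjusted p under 0.05, where 13.2% of all tested probe sets were higher and 15.6% were lower. Between tumor and non-transgenic lung, the counts were again 1 higher and 2 lower, against 15.6% and 16.9% of all tested probe sets. In the F-test over the 3 groups, 3 of the 11 passed, against 28.6% of all tested. The median difference between tumor and adjacent lung was 0.06 over the 11 and 0.07 over all tested, and the median size of the difference, without its sign, was 0.42 and 0.36. Each count is therefore near what the array as a whole showed. The tumor and adjacent arrays of 3 of the 11 did not overlap, against 23.5% of all tested, and for 2 of the 11, Cxcl12 (1417574_AT) and Ccl21, the 4 tumors did not overlap with the 8 lungs, against 17.6%. The comparisons with adjacent and with non-transgenic lung share the tumor arrays.

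Tumor 2 and adjacent lung 3 stood apart from the other arrays of their groups over all tested probe sets. The mean Euclidean distance to the other arrays of its group was 153.9 for tumor 2 and 96.7 to 102.9 for the other tumors. For adjacent lung 3 it was 104.7, and 66.2 to 69.8 for the other adjacent lungs. The difference between 3' and 5' control probe sets of Gapdh and actin, a measure of RNA integrity, was 0.61 (log2) in tumor 2, the highest, and 0.30 to 0.57 elsewhere. Its part in the results was not tested, and results that rest on tumor 2 are given with and without it.

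Among the chemokines that draw neutrophils, Cxcl1 (1419209_AT) rose in tumors. Its signal was 8.72, 6.68, 7.61 and 7.43 in tumors 1 to 4. It was 3.80, 5.98, 4.85 and 5.15 in adjacent lungs 1 to 4, and 7.35, 3.65, 3.57 and 4.41 in non-transgenic lungs 1 to 4. All 4 tumors lay above all 4 adjacent lungs, whereas non-transgenic lung 1 lay above tumor 2. The means were 7.61 ± 0.84 in tumor, 4.94 ± 0.90 in adjacent lung and 4.75 ± 1.78 in non-transgenic lung (SD, n = 4 each). Tumor exceeded adjacent lung by 2.67 (SE 0.77, 95% interval 0.99 to 4.35, limma's adjusted p = 0.023), and only 41 of the 23538 probe sets had a more positive difference. Over non-transgenic lung the difference was 2.87, or 7.30-fold (95% interval 1.19 to 4.55, limma's adjusted p = 0.015). The call against adjacent lung was lost without tumor 1 (2.30, adjusted p = 0.068), without tumor 3 (2.67, adjusted p = 0.053) or without adjacent lung 1 (2.29, adjusted p = 0.070). Against non-transgenic lung it passed whichever single array was left out.

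The 250 bases before the start of Cxcl1 are shown because this is the only gene of the list that rose. In the promoter table from RefSeq (build GRCm38.p6) they lie on the plus strand at chr5:90890995-90891244. Capitals mark GGAATTTCC, a form of the site that NF-kappaB factors bind, at 70 to 62 bases before the start.

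Cxcl1: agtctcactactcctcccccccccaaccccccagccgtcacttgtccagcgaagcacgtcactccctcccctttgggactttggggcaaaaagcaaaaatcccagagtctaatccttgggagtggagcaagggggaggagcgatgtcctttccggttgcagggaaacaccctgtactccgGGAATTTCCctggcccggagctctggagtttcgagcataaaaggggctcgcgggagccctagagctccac

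Both strands were searched. GGAATTTCC lay in 0.286% of 32851 mouse promoters of this length, and another form, GGACTTTCC, lay in 0.283% and in none of the promoters of the list that the table holds. A match of letters is not a site in use, and these arrays measured no binding.

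Cxcl15 (1421404_AT), known as lungkine, is a neutrophil chemokine of the airway and alveolar epithelium and lies directly before Cxcl1 in the gene order of chromosome 5, in a cluster that begins with Cxcl5. Its signal was 13.05, 12.15, 12.67 and 12.59 in tumors 1 to 4. The adjacent lungs 1 to 4 had 12.22, 12.32, 12.41 and 12.78, and the non-transgenic lungs 12.01, 12.18, 12.43 and 12.09. Tumor and lung values overlapped, and tumor 1 was the highest array. Tumor minus adjacent lung was 0.18 (95% interval -0.24 to 0.60, limma's adjusted p = 0.50), an interval whose upper bound lies below that fitted for Cxcl1, 2.67. Against non-transgenic lung it was 0.44 (95% interval 0.02 to 0.86, adjusted p = 0.10), and 0.59 without tumor 2 (adjusted p = 0.014).

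The 250 bases before Cxcl15 are shown as those of the neighbour of Cxcl1, on the plus strand at chr5:90794284-90794533 of GRCm38.p6 (RefSeq). Capitals mark TATAAA, the TATA box letters, at 27 to 22 bases before the start, which lay in 12.4% of the promoters on either strand.

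Cxcl15: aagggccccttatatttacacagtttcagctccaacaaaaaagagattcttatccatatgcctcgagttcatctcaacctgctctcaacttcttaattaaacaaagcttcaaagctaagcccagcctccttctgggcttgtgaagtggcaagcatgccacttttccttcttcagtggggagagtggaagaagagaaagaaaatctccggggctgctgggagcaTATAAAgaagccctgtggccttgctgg

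Cxcl5 (1419728_AT), the third neutrophil chemokine of the list, was dim. Its signal was 4.11, 3.33, 4.16 and 3.42 in tumors, 3.15, 5.03, 3.48 and 2.93 in adjacent lungs and 3.52, 2.79, 3.02 and 3.70 in non-transgenic lungs 1 to 4. Adjacent lung 2 was the single array above the table's median, and the groups overlapped. Adjacent lung 2 was also the highest adjacent lung for Cxcl1, at 5.98.

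Cxcl12, a chemokine of stromal and endothelial cells that retains Cxcr4-bearing lymphocytes and progenitors, fell in tumors by 1417574_AT. The 4 tumors had 3.68, 8.24, 3.78 and 4.33. Adjacent lungs 1 to 4 had 9.71, 9.76, 8.46 and 9.55, and non-transgenic lungs 1 to 4 had 8.85, 9.39, 9.18 and 9.02. Every tumor lay below every lung, but tumor 2 was within 0.22 of adjacent lung 3 and far above the other tumors. The means were 5.01 ± 2.18 in tumor, 9.37 ± 0.61 in adjacent lung and 9.11 ± 0.23 in non-transgenic lung (SD, n = 4 each). The limma fit takes a common spread for the groups, so its SE, intervals and adjusted p below rest on equal spreads that these SDs lack. By the methods' t-test, with each group's own spread, 1417574_AT passed both tumor comparisons before adjustment and neither after it. Tumor minus adjacent lung was -4.36 (SE 0.81, 95% interval -6.13 to -2.60, limma's adjusted p = 0.0025), and 48 of 23538 probe sets were more negative. Tumor minus non-transgenic lung was -4.10, or 17.2-fold lower (95% interval -5.86 to -2.34, adjusted p = 0.0030). Without tumor 2, the mean of tumors 1, 3 and 4 was 3.93 ± 0.35 (SD, n = 3) and the difference from adjacent lung was -5.44 (adjusted p = 7.0e-08). Tumors 1 and 3 lay below the table's median, and the table holds no detection calls.

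The second probe set, 1448823_AT, placed the same 3 tumors lowest. It read 4.06, 7.68, 3.40 and 4.55 in tumors 1 to 4, 6.23, 5.97, 6.54 and 6.30 in adjacent lungs, and 7.14, 6.23, 6.38 and 6.16 in non-transgenic lungs. Tumors 1, 3 and 4 lay below all 8 lungs, and tumor 2 was the highest of the 12 arrays. With all 4 tumors the difference from adjacent lung was -1.34 (95% interval -2.86 to 0.19, limma's adjusted p = 0.17), and without tumor 2 it was -2.25 (95% interval -2.88 to -1.63, adjusted p = 6.1e-05). Against non-transgenic lung it was -1.55 (adjusted p = 0.11) and, without tumor 2, -2.47 (adjusted p = 2.7e-05). The pair of Cxcl12 probe sets put 1 of the 12 arrays at the same place in the order, with shifts of up to 8 places. Across the 12 arrays they correlated with Pearson's r = 0.84, a value that reflects the shared arrays and the low tumors. The third, 1439084_AT, read 2.86 to 3.88 on the 12 arrays, all below the table's median, and its tumor minus adjacent difference was -0.54, which passed (limma's adjusted p = 0.026) only in a fit without the filter on dim probe sets.

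The 250 bases before Cxcl12, the member with the largest change, lie on the plus strand at chr6:117168285-117168534 of GRCm38.p6 (RefSeq). Capitals mark GGGCGG, the GC box, or its complement CCGCCC, which began 187, 86, 33, 16 and 11 bases before the start, the last pair overlapping by 1 base. Some GC box lay in 32.7% of the promoters, and TATAAA lay in none of these 250 bases.

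Cxcl12: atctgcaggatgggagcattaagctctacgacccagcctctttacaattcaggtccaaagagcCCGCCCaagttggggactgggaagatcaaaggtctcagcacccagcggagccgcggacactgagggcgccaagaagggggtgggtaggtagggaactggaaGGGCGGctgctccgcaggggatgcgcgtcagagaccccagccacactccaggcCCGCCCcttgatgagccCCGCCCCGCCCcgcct

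Ccl21 (1419426_S_AT), made by lymphatic endothelium and by stromal cells of lymphoid tissue to draw Ccr7-bearing T cells and dendritic cells, also fell. The tumors had 3.45, 8.54, 5.70 and 4.00. The adjacent lungs had 8.78, 8.71, 9.14 and 8.99, and the non-transgenic lungs 9.27, 9.45, 9.50 and 9.49. Tumor 2 lay just under the lowest adjacent lung, and the other tumors lay 3.00 or more below every lung. The means were 5.42 ± 2.29 in tumor, 8.90 ± 0.20 in adjacent lung and 9.43 ± 0.11 in non-transgenic lung (SD, n = 4 each). The limma fit takes a common spread for the groups, so its SE, intervals and adjusted p below rest on equal spreads that these SDs lack. By the methods' t-test, with each group's own spread, Ccl21 passed in neither tumor comparison after adjustment. Before adjustment it passed against non-transgenic lung only. Tumor minus adjacent lung was -3.48 (SE 0.82, 95% interval -5.26 to -1.70, limma's adjusted p = 0.0090), and tumor minus non-transgenic lung was -4.00, or 16.0-fold lower (95% interval -5.79 to -2.22, adjusted p = 0.0037). Without tumor 2 the difference from adjacent lung was -4.52 (adjusted p = 3.1e-06). Tumors 1 and 4 lay below the table's median. Mouse has near-identical copies of this gene, Ccl21a, Ccl21b and Ccl21c, and the probe set cannot tell which copy was read.

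With the mouse as a replicate block over the 8 transgenic arrays, Cxcl12 (1417574_AT) and Cxcl1 passed (limma's adjusted p = 0.022 and 0.048) and Ccl21 did not (adjusted p = 0.051). The count of the list was therefore 2, where 3282 of all 23538 tested probe sets passed. Tumor minus the adjacent lung of equal number was 4.92, 0.71, 2.77 and 2.28 for Cxcl1 in pairs 1 to 4, higher in 4 of 4. It was -6.03, -1.52, -4.68 and -5.23 for Cxcl12 (1417574_AT) and -5.33, -0.16, -3.43 and -4.99 for Ccl21, lower in 4 of 4. For all 3 genes pair 2 had the smallest difference.

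**Figure D2:**
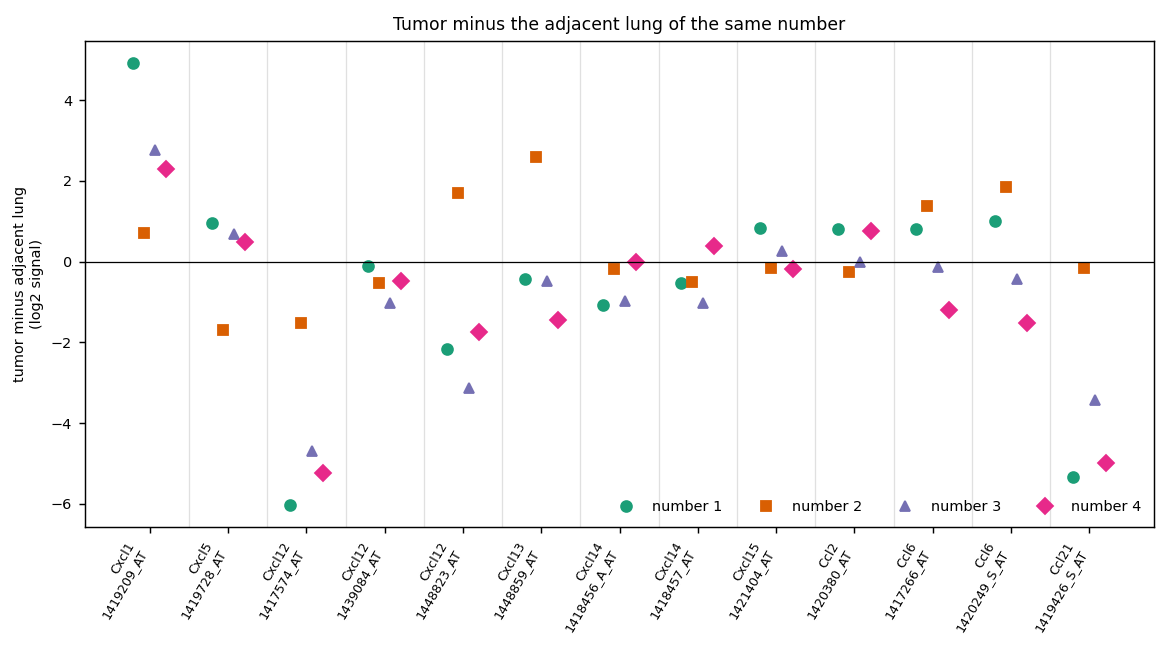
Tumor minus the adjacent lung of the same replicate number (vertical axis, difference in log2 signal) for each of the 13 probe sets (horizontal axis). Each symbol is 1 of 4 pairs. For Cxcl1, Cxcl12 (1417574_AT) and Ccl21 pair 2 lies nearest 0, and for Cxcl13 and 1448823_AT pair 2 alone lies above 0.

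Among the other chemokines of resting tissue, Cxcl13 (1448859_AT), which draws B cells through Cxcr5, did not pass. Its signal was 4.39, 7.86, 5.26 and 4.97 in tumors 1 to 4, 4.81, 5.26, 5.75 and 6.43 in adjacent lungs and 6.23, 5.98, 5.48 and 5.27 in non-transgenic lungs. Tumor 2 was the highest of the 12 arrays and tumor 1 the lowest. The difference from adjacent lung was 0.06 (95% interval -1.30 to 1.42, limma's adjusted p = 0.95) and, without tumor 2, -0.69 (95% interval -1.48 to 0.10, adjusted p = 0.14). From non-transgenic lung it was -0.12 (adjusted p = 0.91).

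Cxcl14, an epithelial chemokine of resting tissue, was read by 1418456_A_AT at 6.12, 6.44, 6.28 and 6.61 in tumors 1 to 4. The adjacent lungs had 7.19, 6.63, 7.25 and 6.61 and the non-transgenic lungs 5.94, 6.88, 6.69 and 6.89. The tumors lay at or below the lowest adjacent lung, and non-transgenic lung 1 was lower than any tumor. Tumor minus adjacent lung was -0.56 (95% interval -1.06 to -0.05, limma's adjusted p = 0.092), and it passed in the fit without non-transgenic lung 1 (adjusted p = 0.045). For the second probe set, 1418457_AT, with 5.47 to 6.26 in tumors, 5.88 to 6.84 in adjacent lungs and 5.49 to 6.32 in non-transgenic lungs, it was -0.42 (95% interval -0.98 to 0.14, adjusted p = 0.24). Against non-transgenic lung the pair of probe sets gave -0.24 and -0.11 (adjusted p = 0.47 and 0.79).

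Of the chemokines that draw myeloid cells, Ccl2 (1420380_AT), the ligand of Ccr2 on monocytes, was near the table's median throughout. Tumors 1 to 4 had 4.57, 4.34, 4.24 and 4.79, adjacent lungs 3.77, 4.60, 4.26 and 4.04, and non-transgenic lungs 4.45, 3.93, 4.11 and 4.06. All 4 tumors but only 3 of the 8 lungs lay above the median, and the groups overlapped. The difference from adjacent lung was 0.32 (95% interval -0.11 to 0.74, limma's adjusted p = 0.24), and from non-transgenic lung it was 0.35 (adjusted p = 0.19).

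Ccl6, a chemokine of macrophages and other myeloid cells, varied more within groups than between them. By 1417266_AT the tumors had 11.96, 13.02, 11.07 and 10.29, the adjacent lungs 11.16, 11.65, 11.20 and 11.51, and the non-transgenic lungs 12.51, 10.87, 10.87 and 10.73. Tumor 2 was the highest array, non-transgenic lung 1 the next, and tumor 4 the lowest. The second probe set, 1420249_S_AT, had 10.64, 12.29, 9.42 and 8.63 in tumors, 9.62 to 10.44 in adjacent lungs and 9.28 to 11.46 in non-transgenic lungs. It put 9 of the 12 arrays at the same place in the order (Pearson's r = 0.99 over 12 arrays). Tumor minus adjacent lung was 0.21 (95% interval -0.94 to 1.36, limma's adjusted p = 0.79) and 0.23 (95% interval -1.26 to 1.73, adjusted p = 0.82), intervals wide enough to hold a doubling in either direction for the second. Without tumor 2 both turned, to -0.27 (95% interval -1.23 to 0.70) and -0.45 (95% interval -1.62 to 0.72). Against non-transgenic lung the differences were 0.34 and 0.29 (adjusted p = 0.65 and 0.78), and -0.14 and -0.39 without tumor 2.

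**Figure D3:**
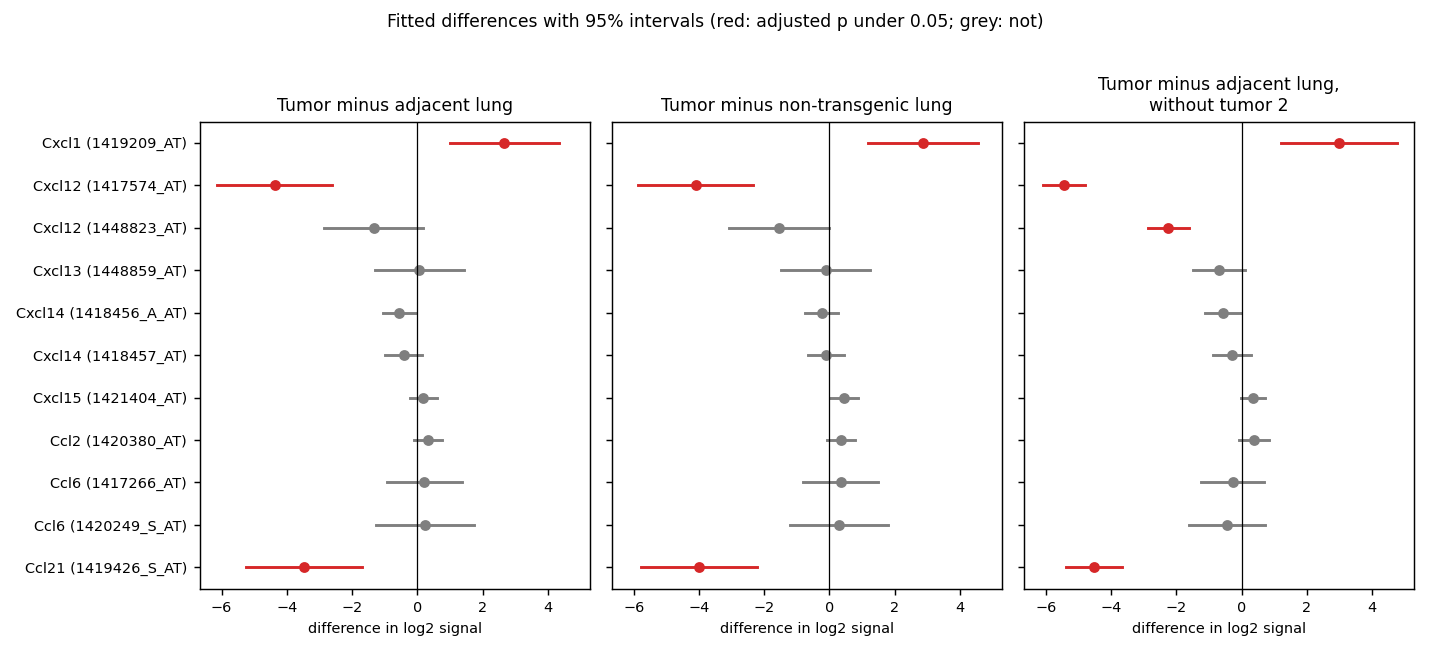
Fitted differences in log2 signal (horizontal axis) with 95% intervals for the 11 tested chemokine probe sets (vertical axis), for tumor against adjacent lung, tumor against non-transgenic lung, and tumor against adjacent lung without tumor 2. Red marks an adjusted p under 0.05. Without tumor 2, the interval of Cxcl12 (1448823_AT) runs from -2.88 to -1.63.

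Tumor 2 differed from the other tumors most for Cxcl12 (1417574_AT and 1448823_AT), Ccl21, Cxcl13 and Ccl6. It was higher than the mean of tumors 1, 3 and 4 by 4.31 and 3.67 for these probe sets of Cxcl12, 4.16 for Ccl21, 2.99 for Cxcl13, and 1.91 and 2.73 for Ccl6. For the probe sets of Cxcl14 the difference was 0.11 and -0.51, and for the dim Cxcl12 probe set 1439084_AT it was -0.05. For Cxcl1 it was lower, with a difference of -1.24, yet it lay nearer the other tumors than the lungs. The SD among the 4 tumors of Ccl21 and Cxcl12 (1417574_AT) stood at the 99.7th and 99.6th percentile of all tested probe sets. Tumor 2 lay nearer the lungs over much of the array. Of the 5193 probe sets lower in tumors 1, 3 and 4 than in adjacent lung, tumor 2 lay nearer the lungs for 65.4%. So it did for 3 of 3 on the list, namely 1417574_AT and 1448823_AT of Cxcl12, and Ccl21. All 3 were at least 4-fold lower, and among all such probe sets the share was 71.1%. Of the 5402 probe sets higher in tumors 1, 3 and 4, tumor 2 lay nearer the lungs for 78.3%, but not for Cxcl1, the only one on the list. Without tumor 2, 4 probe sets of the list passed against adjacent lung, 1 higher and 3 lower, where 23.0% of all tested were higher and 22.1% lower. Against non-transgenic lung 5 passed, 2 higher and 3 lower, where the shares were 24.3% and 22.5%.

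Between adjacent and non-transgenic lung, limma called 0 of the 11 probe sets, with 0 at an unadjusted p under 0.05, and 0.0% of all tested, where 835 of all tested had an unadjusted p under 0.05. The differences of the 11 ran from -0.52 (Ccl21) to 0.32 (Cxcl14, 1418456_A_AT). The methods' t-test called 0 of the 11 after adjustment and 1, Ccl21, before it, against 0 and 1305 of all 23538 tested probe sets. Of the 11 tested, Ccl21 was the one whose arrays did not overlap between them (8.71 to 9.14 against 9.27 to 9.50), which 4.78% of all tested probe sets did. Its difference was -0.52 (95% interval -2.31 to 1.26, limma's adjusted p = 1.0), and in a fit of the 8 lungs alone the interval was -0.81 to -0.24 (unadjusted p = 0.0025, adjusted p = 0.72). For Cxcl1 the difference was 0.20 (95% interval -1.48 to 1.88) and for Cxcl12 (1417574_AT) 0.26 (95% interval -1.50 to 2.02), with a spread that includes the tumors. In the fit of the 8 lungs alone the interval was -1.60 to 2.00 for Cxcl1 and -0.36 to 0.88 for Cxcl12 (1417574_AT). The untested Cxcl12 probe set 1439084_AT also did not overlap, at 3.73 to 3.88 in adjacent and 3.29 to 3.57 in non-transgenic lung, all under the table's median.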

How the data were processed

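RNA of 12 mouse lung tissues was labelled as biotin cRNA and hybridized to Affymetrix mouse genome arrays. The authors deposited log2 signals that ran from 1.50 to 14.51, with the background corrected and the arrays normalized. The methods name Robust Multichip Average and the submitters' processing notes name GCRMA, which pull low signals down to different degrees. Array medians were 4.17 to 4.38 in lungs and 4.10 to 4.13 in tumors. Groups came from the labels. The members and lists were chosen with earlier results of these data known. Gene names came with the list, since the table holds probe set identifiers only. Other chemokines, receptors, cell type markers and genes of like pattern, listed by symbol, were not analysed here, and the labelled tissues were not checked against markers.

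Of 45037 probe sets other than controls, the 23538 brighter than the median of the table (4.18) on 4 or more arrays were fitted with limma 3.58.1 in R 4.3.3 (lmFit and eBayes, 3 groups, no block), with Benjamini-Hochberg adjustment over all of them and 0.05 as the threshold. The script was tested on simulated data. The pairing comes from the design text and the labels; deviations from the group means correlated by -0.03, 0.10, 0.07 and 0.11 in pairs 1 to 4. Alternatives were other filters, quantile normalization, median centring, a floor at the 25th percentile (2.81), a trend with robust fit, only the 8 arrays compared, the mouse as fixed or random block, the methods' analysis of variance and t-test, each array left out, and tumor 2 with adjacent lung 3 left out. The methods name analysis of variance for the arrays, and their t-test for unequal variances was applied here to each pair of groups. Members were described individually, with all 13 named. Promoters came from a RefSeq table (GRCm38.p6) that held 7 of the 9 genes. Differences are between log2 signals, and folds are their linear form.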

Additional observations from a re-analysis of the deposited data

Results flagged for a closer look

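Of 39 sets of 4 arrays examined (13 probe sets in 3 groups), 3 had an array whose gap to its nearest neighbour was unusually large for the range of its group, and chance gives such a gap in about 1 in 20 sets. For Cxcl12 (1417574_AT), tumor 2 was high at 8.24, with the other tumors at 3.68 to 4.33. For the same probe set, adjacent lung 3 was low at 8.46, with the other adjacent lungs at 9.55 to 9.76. By the other Cxcl12 probe sets adjacent lung 3 was instead the highest adjacent lung, at 6.54 (1448823_AT) and 3.88 (1439084_AT, under the table's median). For Ccl6 (1417266_AT), non-transgenic lung 1 was high at 12.51, with the other non-transgenic lungs at 10.73 to 10.87.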

How the results depend on the processing

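Across the alternatives, the 3 probe sets called in both tumor comparisons (Cxcl1, Cxcl12 1417574_AT and Ccl21) had the same direction in 141 of 141 refits. They passed the threshold in 130, a count that takes the unadjusted t-test at an unadjusted p under 0.05. Many of the 141 refits changed only the filter, the estimate of the spread or an array of the group not compared. They left the difference itself as it was, so that its direction could not turn there. The count against adjacent lung was 3, and 2 to 4 with single arrays left out, where 4476 to 10595 of all 23538 tested probe sets passed. It was 2 with the replicate block, where 3282 of all tested passed. By the methods' t-test it was 0 after adjustment, where 591 of all tested passed, and 3 before it, where 6671 did. The 3 held Cxcl14 1418456_A_AT in place of Ccl21, and this t-test takes the spread of each group from its own 4 arrays. The count against non-transgenic lung was 3, and 3 to 5 with single arrays left out (5 without tumor 2), where 5370 to 11011 of all tested passed. It was 5 without tumor 2 and adjacent lung 3, where 12304 of all tested passed. By the adjusted t-test it was 0, where 1489 of all tested passed, and 3 before adjustment, where 8089 did. Between adjacent and non-transgenic lung it was 0 throughout, except 1 (Ccl21) by the unadjusted t-test, where 1305 of all tested passed. Over the 3 groups it was 3, with 2 to 5 when single arrays were left out (4152 to 10395 of all tested). It was 5 without tumor 2 and adjacent lung 3, where 11509 of all tested passed. By the methods' analysis of variance it was 2 after adjustment, where 5733 of all tested passed, and 3 before it, where 9335 did. Why the unadjusted t-test did not pass Ccl21 against adjacent lung was not tested.

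Directions turned only for differences that were not called. Against adjacent lung without tumor 2 and adjacent lung 3, Cxcl13 became -0.62 and Ccl6 -0.33 and -0.51, and Cxcl15 became -0.014 after quantile normalization. With single arrays left out, Cxcl13 ran from -0.69 to 0.47, Ccl6 (1417266_AT) from -0.27 to 0.64 and Ccl6 (1420249_S_AT) from -0.45 to 0.77. Against non-transgenic lung without both arrays, Cxcl14 (1418457_AT) became 0.022 and Ccl6 -0.14 and -0.39, and with single arrays left out Cxcl13 ran from -0.86 to 0.29, Cxcl14 (1418457_AT) from -0.26 to 0.022, and Ccl6 from -0.14 to 0.77 and from -0.39 to 0.83. Between the lungs Ccl2 became -0.012 by quantile normalization, -0.018 by median centring and -0.0010 without both arrays. With single arrays left out Cxcl1 ran from -0.19 to 1.07, Cxcl12 (1448823_AT) from -0.33 to 0.0035, Cxcl13 from -0.46 to 0.075, Ccl2 from -0.12 to 0.16, and Ccl6 from -0.036 to 0.55 and from -0.17 to 0.56. The table holds no detection calls, so it is not known at which level signal stands above background. Its median of 4.18 served as a filter, and levels under it may be background.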
